A study of Mus musculus with 5 samples.

Results

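Interleukin receptor chains are the membrane proteins through which T cells read cytokines, and 10 of the 11564 genes in the deposited table were taken here by name: Il2ra, Il2rb, Il2rg, Il7r, Il15ra, Il4ra, Il21r, Il27ra, Il12rb2 and Il18r1. All 10 were present in the table, and all 10 passed the filter on low values (at least 10 normalized counts in at least 2 libraries). The RNA came from sorted CD8 T cells of mice, a killer lymphocyte that recognises antigen on infected or malignant cells. There were 3 libraries with the genotype PHD2-deltaT, described as a knockout of PHD2, and 2 of wild-type (WT) cells. Egln1 encodes PHD2, an enzyme that uses oxygen to hydroxylate prolines of the HIF transcription factors and so leads to their breakdown. The labels state neither the promoter that drove the deletion nor the strain, age or treatment of the mice, nor whether the cells were resting or activated, nor whether the libraries came from separate mice. The p-values therefore concern these samples only, and part of the spread between them may be technical.

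Most of these receptors belong to the common gamma chain family. Il2rg encodes that chain, which is shared by the receptors for the cytokines IL-2, IL-4, IL-7, IL-15 and IL-21, and which signals through the kinase JAK3. Each private chain (Il4ra, Il7r, Il21r) or the shared beta chain Il2rb pairs with it, binds JAK1 and recruits STAT proteins, mainly STAT5 for IL-2, IL-7 and IL-15, STAT6 for IL-4 and STAT3 for IL-21. Il27ra pairs with Il6st (gp130) and Il12rb2 with Il12rb1, whereas Il18r1 and its partner Il18rap belong to the interleukin-1 receptor family and signal through MyD88 and IRAK kinases. In CD8 T cells the IL-2 and IL-15 receptors are known for driving proliferation and memory, the IL-7 receptor for survival, and the IL-12 and IL-18 receptors for interferon gamma production.

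In the libraries labelled PHD2-deltaT, Il4ra and Il18r1 transcripts were higher than in WT, by 1.32-fold and 1.39-fold. None of the 10 chains was called lower. The remaining 8 chains did not pass the test, and their means relative to WT ran from 0.892-fold for Il2rg to 24.6% higher for Il15ra. Calls are those of limma-trend, a linear model of log2(normalized count + 1) fitted over all 11534 genes tested, at a Benjamini-Hochberg adjusted p under 0.05. The 2 higher calls among 10 members compare with 2.97% of all genes called higher, and the 0 lower calls with 1.02% of all genes called lower. At an unadjusted p under 0.05 by limma-trend, 6 members were higher and 0 lower, against 8.53% and 6.48% of all genes. Of the 10 members, 2 had an FDR under 0.05 and a fold change towards PHD2-deltaT in the authors' deposited table, and 0 towards WT, against 2.95% and 1.01% of its genes with an FDR. The members share libraries and were chosen with results of these data known, so these shares describe the list and test nothing.

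Sequences around start sites are shown for Il4ra and Il18r1, the chains called higher. Il2rg, the only chain with a negative log2 fold change, is shown as well. The windows are RefSeq promoters on GRCm38.p6 (mm10), 300 bases long, and 8 of the 10 members had 1 or more of them. The motifs searched on both strands were ACGTG and GCGTG, the core of hypoxia response elements to which HIF is known to bind, and TTCNNNGAA, the palindrome known to bind STAT5. Matches are in capitals.

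Il4ra, chr7:125552021-125552320, plus strand: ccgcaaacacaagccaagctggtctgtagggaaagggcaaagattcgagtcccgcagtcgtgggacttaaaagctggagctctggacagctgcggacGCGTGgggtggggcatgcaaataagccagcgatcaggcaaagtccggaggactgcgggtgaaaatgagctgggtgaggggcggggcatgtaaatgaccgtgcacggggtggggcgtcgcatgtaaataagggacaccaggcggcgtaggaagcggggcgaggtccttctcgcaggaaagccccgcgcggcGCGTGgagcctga

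Il18r1, chr1:40465756-40466055, plus strand: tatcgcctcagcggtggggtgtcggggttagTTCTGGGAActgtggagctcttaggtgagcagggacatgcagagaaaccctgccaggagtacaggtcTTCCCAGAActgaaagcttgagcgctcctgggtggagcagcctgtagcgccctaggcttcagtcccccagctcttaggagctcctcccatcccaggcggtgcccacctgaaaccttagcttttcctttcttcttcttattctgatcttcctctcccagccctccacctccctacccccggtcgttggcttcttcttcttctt

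Il2rg, chrX:101268206-101268505, minus strand: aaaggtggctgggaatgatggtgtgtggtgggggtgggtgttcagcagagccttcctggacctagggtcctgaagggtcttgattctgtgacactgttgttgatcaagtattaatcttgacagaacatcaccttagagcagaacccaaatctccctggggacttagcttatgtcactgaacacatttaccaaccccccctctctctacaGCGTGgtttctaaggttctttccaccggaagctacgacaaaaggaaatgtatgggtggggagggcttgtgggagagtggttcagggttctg

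The Il4ra window held GCGTG at 153 bases before and 37 bases after the start site, and the Il2rg window held it once, 41 bases before. Start sites here are those of the windows, and that of Il4ra lies inside the gene, which is annotated from 125552120. The Il18r1 window held TTCNNNGAA at 219 and 152 bases before its start site. That window lies wholly inside the gene, which is annotated from 40465552. The other 2 windows listed for this gene span that position and held none of the 3 motifs. Over the 8 members with a promoter, GCGTG was found for 3 (Il12rb2, Il2rg and Il4ra), TTCNNNGAA for 3 (Il12rb2, Il18r1 and Il7r) and ACGTG for 0. These counts are per gene, with a match in any of its windows. Counted the same way over all 27025 genes with a RefSeq promoter window, 35.2% held GCGTG, 9.6% TTCNNNGAA and 21.8% ACGTG, and of the 32851 single windows 32.4%, 8.3% and 19.6% did. No match overlapped a match of another motif in these windows. A match is a run of letters and not a known binding site, and the window says nothing of sites elsewhere.

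The labels and the libraries were checked first. Egln1 stood higher in libraries labelled PHD2-deltaT than in WT, with 4922 ± 563 (SD, n = 3) against 2054 ± 180 (SD, n = 2) normalized counts. Counts over the whole gene cannot separate deleted from retained exons, so the deletion itself remains unchecked. All 5 CD8 T cell markers were in the table (Cd8a, Cd8b1, Cd3d, Cd3e, Cd3g). Their summed level was 49546 to 50831 in PHD2-deltaT and 49820 to 53096 in WT. By limma-trend 0 were called, against 2.97% of all genes higher and 1.02% lower. At an unadjusted p under 0.05 there were 0, against 8.53% and 6.48%. Cd3e and Cd3g were below both WT libraries in all 3 PHD2-deltaT libraries. The share of all genes lower in that way was not counted, so this is a description only. Their log2 fold changes were -0.15 and -0.12 (limma-trend adjusted p = 0.378 and 0.446). Above both WT libraries in that way were 0 of the 5 markers, against 16.0% of all genes. Among markers of other cells, Cd4, Ms4a1, Ncr1, Csf1r and Itgam were not in the table. Of 5 dendritic cell markers 3 were in the table and 2 were called higher, Zbtb46 and Itgax, against 2.97% of all genes. Xcr1, the remaining marker found, was not called and did not rise (log2 fold change -0.04, limma-trend adjusted p = 0.989). The 3 markers summed to 209 to 262 in PHD2-deltaT and 116 to 117 in WT. The summed level was 209 to 223 against 214 to 268 for 4 of 5 CD4 and regulatory T cell markers, of which Ikzf2 had the lower mean in PHD2-deltaT and Zbtb7b, Cd40lg and Foxp3 the higher, with a list median log2 fold change of 0.57. It was 11.0 to 21.3 against 4.03 to 5.94 for the 1 of 5 natural killer markers found. It was 5179 to 5950 against 5711 to 6192 for the 3 B cell markers found, of which Ighm made up the most, while Cd79b (unadjusted p = 0.0386) and Ighd were above WT in all 3 PHD2-deltaT libraries. It was 1046 to 1226 against 986 to 1172 for the 1 of 8 myeloid markers found. The part of other cells in the results below was not tested. In bulk RNA, fewer cells with a transcript and less of it per cell cannot be told apart.

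The levels of the chains were compared per kilobase of annotated exon, since longer genes collect more reads. Il2rg and Il2rb headed the order. Il2rg stood at 2997 ± 149 (SD, n = 3) normalized counts per kilobase in PHD2-deltaT and 3361 ± 423 (SD, n = 2) in WT, and Il2rb at 3047 ± 143 and 2605 ± 112. The values of these 2 chains overlapped over the 5 libraries, and their order turned between the groups: Il2rg was above Il2rb in both WT libraries. Next came Il2ra, the inducible alpha chain that gives the IL-2 receptor its high affinity, with 1880 ± 105 and 1646 ± 11.5, and Il21r, with 1693 ± 13.1 and 1575 ± 95.3, which overlapped each other.

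Il4ra, at 1288 ± 34.8 and 979 ± 16.0 normalized counts per kilobase, Il27ra, at 941 ± 43.0 and 887 ± 46.2, and Il7r, at 877 ± 81.6 and 747 ± 5.39, formed the middle of the order. Il27ra overlapped Il7r, and the lowest Il4ra value reached down to the highest Il27ra value. These 7 chains all lay at or above percentile 86.6 of the genes tested by mean level per kilobase. Il12rb2 lay lower, at 296 ± 51.4 and 245 ± 61.4, and did not overlap its neighbours. Il18r1, at 114 ± 5.77 and 81.9 ± 15.3, and Il15ra, at 107 ± 2.97 and 86.2 ± 2.40, overlapped at the bottom, at percentiles 42.4 and 41.9. Exon lengths count every annotated isoform, so the order is approximate for genes with long rarely used exons. Part of the exon bases of Il2rg (30.5%), Il12rb2 (40.0%) and Il4ra (9.51%) also lie in other genes, so their places are less certain.

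**Figure D1:**
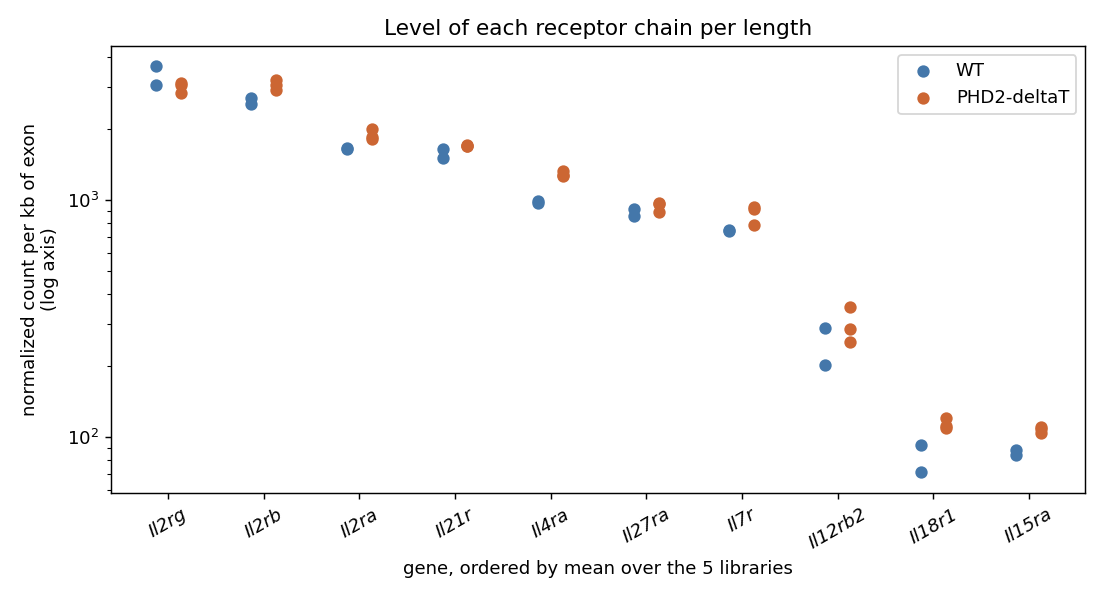
Normalized counts per kilobase of exon (log axis) of the 10 receptor chains, 1 point per library, WT in blue and PHD2-deltaT in orange, with genes ordered by their mean over the 5 libraries. Il2rg and Il2rb share the top of the order, between 2525 and 3660, and Il18r1 and Il15ra the bottom, between 71.1 and 120.1, with overlapping values within each pair.

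Il4ra encodes the chain that binds IL-4 and pairs with the common gamma chain. It is on mm10 chromosome 7, 125552120 to 125579474, plus strand, and 9.51% of its exon bases also lie in the predicted gene Gm44876 on the other strand. The libraries labelled PHD2-deltaT held 7637, 7584 and 7970 normalized counts of it, and the WT libraries 5942 and 5807. The groups did not overlap and each was tight, the highest library being 1.05 times the lowest in PHD2-deltaT and 1.02 times in WT. On the log2 scale it rose by 0.40 ± 0.07 (SE; 95% confidence interval 0.25 to 0.54, limma-trend adjusted p = 0.00190). It was 0.37 to 0.41 with each library left out. The fits without a PHD2-deltaT library each called it (limma-trend adjusted p = 0.00249 to 0.00834). It was 0.41 without WT replicate 1 and 0.38 without WT replicate 2, with 1 WT library left in each. Limma without the mean-variance trend, which draws every gene's variance towards a single common value, gave an adjusted p of 0.104. In the authors' deposited table the log2 ratio of WT over PHD2-deltaT was -0.37 with an FDR of 1.83e-06.

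Il18r1 encodes the ligand-binding chain of the IL-18 receptor (mm10 chromosome 1, 40465552 to 40500854, plus strand). It had 527, 579 and 534 normalized counts under PHD2-deltaT, compared with 342 and 447 under WT. All 3 PHD2-deltaT libraries were above both WT libraries, but the WT libraries differed from each other by 1.31 times. It rose by 0.48 ± 0.12 on the log2 scale (SE; 95% confidence interval 0.23 to 0.73, limma-trend adjusted p = 0.0269). Without WT replicate 1, the lower of the WT libraries, it was 0.29 with an adjusted p of 0.345, and the call was also lost without PHD2-deltaT replicate 2 (0.44, adjusted p = 0.0643). Quantile normalization (adjusted p = 0.0541) and limma without the trend (adjusted p = 0.235) ended the call too. The reads inferred behind this gene numbered 184 to 424 per library, and the fewest carry a counting error of 7.37%. The authors' deposited table gave a log2 ratio of WT over PHD2-deltaT of -0.37 and an FDR of 0.0222.

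**Figure D2:**
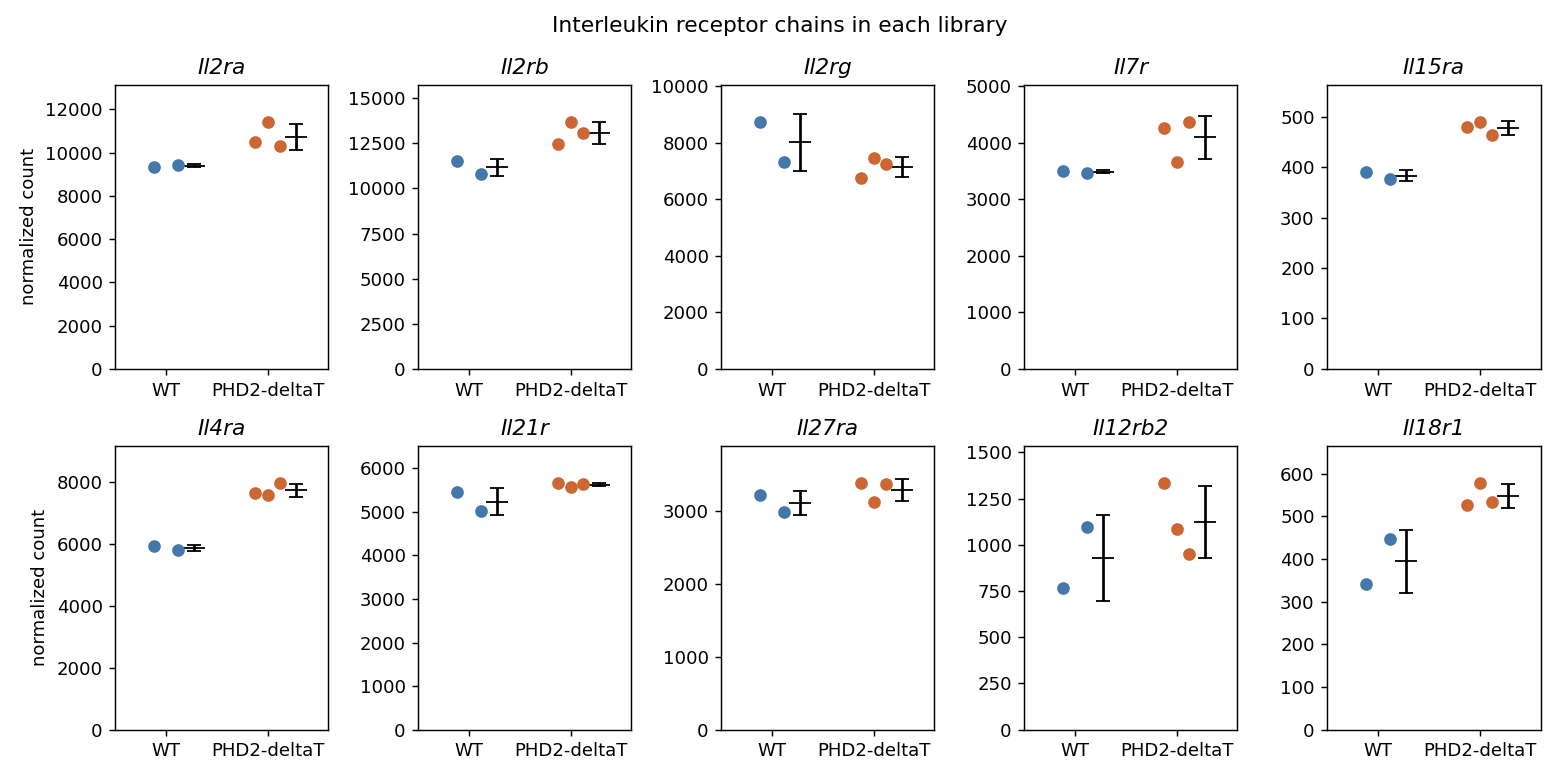
Normalized counts of each receptor chain, 1 point per library, with the mean and SD of each group drawn in black beside the points (WT in blue, n = 2, and PHD2-deltaT in orange, n = 3; axes start at 0). The groups are apart for 7 chains, all with PHD2-deltaT higher, against 16.0% of all genes for that direction. They overlap for Il2rg, Il27ra and Il12rb2.

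The 3 chains of the IL-2 receptor did not pass the test. Il2ra (CD25; chromosome 2, 11642807 to 11693193) had 10494, 11420 and 10303 normalized counts under PHD2-deltaT against 9352 and 9445 under WT. Il2rb, the beta chain that signals for both IL-2 and IL-15 (chromosome 15, 78479256 to 78495271), had 12454, 13683 and 13049 against 11506 and 10825. For both chains every PHD2-deltaT library was above both WT libraries. The log2 fold change was 0.19 ± 0.07 (SE) for Il2ra (95% confidence interval 0.04 to 0.34, adjusted p = 0.184) and 0.23 ± 0.07 (SE) for Il2rb (0.07 to 0.38, adjusted p = 0.108). Quantile normalization brought Il2rb past the threshold, with an adjusted p of 0.0195.

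Il2rg, the common gamma chain (chromosome X, 101264378 to 101268255, minus strand), went the other way in its means. It had 6761, 7451 and 7252 normalized counts under PHD2-deltaT and 8737 and 7309 under WT. WT replicate 1 stood above every other library, while WT replicate 2 lay among the PHD2-deltaT values. Its log2 fold change was -0.16 ± 0.08 (SE; 95% confidence interval -0.33 to 0.01, adjusted p = 0.385), and it was -0.03 without WT replicate 1. Of its exon bases, 30.5% also lie in the predicted gene Gm20489 on the same strand, so its counts are less certain.

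Il7r, the IL-7 binding chain (chromosome 15, 9505788 to 9530176, minus strand), had 4255, 3656 and 4363 normalized counts in PHD2-deltaT against 3499 and 3464 in WT. PHD2-deltaT replicate 2 was close to WT and the other two were clearly above, with the groups not overlapping. For Il7r the log2 fold change was 0.23 ± 0.08 (SE; 95% confidence interval 0.06 to 0.40, adjusted p = 0.150), and without PHD2-deltaT replicate 2 it was 0.31 with an adjusted p of 0.0211.

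Il15ra, the chain that holds IL-15 for presentation to neighbouring cells (chromosome 2, 11705290 to 11734317), had 479, 489 and 463 normalized counts against 391 and 375. These groups were narrow and apart. A log2 fold change of 0.32 ± 0.10 (SE) did not pass after adjustment (95% confidence interval 0.10 to 0.53, unadjusted p = 0.00607, adjusted p = 0.0990).

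Il21r had 5670, 5583 and 5631 normalized counts against 5459 and 5011 (chromosome 7, 125603429 to 125633570). The PHD2-deltaT libraries agreed to within 1.02 times and were all above WT, by little. Its log2 fold change was 0.11 (95% confidence interval -0.04 to 0.25, adjusted p = 0.548), or 0.17 without WT replicate 1 and 0.04 without WT replicate 2. Il21r starts 23954 bases after the end of Il4ra on the same strand, with no other gene of the table between them. The ratio of Il4ra to Il21r per kilobase was 0.746, 0.752 and 0.784 under PHD2-deltaT against 0.603 and 0.642 under WT, with no overlap between the groups. Il2ra and Il15ra are also neighbours, 12096 bases apart on chromosome 2.

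Il27ra, the IL-27 binding chain (chromosome 8, 84030294 to 84042589), had 3382, 3114 and 3365 normalized counts against 3215 and 2987, which overlap. Its log2 fold change was 0.08 (95% confidence interval -0.07 to 0.24, adjusted p = 0.695), which became 0.14 when WT replicate 1 was left out and 0.03 when WT replicate 2 was. It is the only member on the chromosome of Egln1, 40.9 megabases away. Il12rb2, the signalling chain of the IL-12 receptor that recruits STAT4 (chromosome 6, 67291318 to 67376188), had 1336, 1085 and 953 against 766 and 1096. It varied most within groups, by 1.40 times in PHD2-deltaT and 1.43 times in WT, and the groups overlapped. Its log2 fold change was 0.28 (95% confidence interval -0.02 to 0.58, adjusted p = 0.366) and moved from 0.02 without WT replicate 1 to 0.54 without WT replicate 2. Of its exon bases, 40.0% lie in Serbp1 on the other strand, and no source used here says whether counting used strand, so these counts are uncertain.

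**Figure D3:**
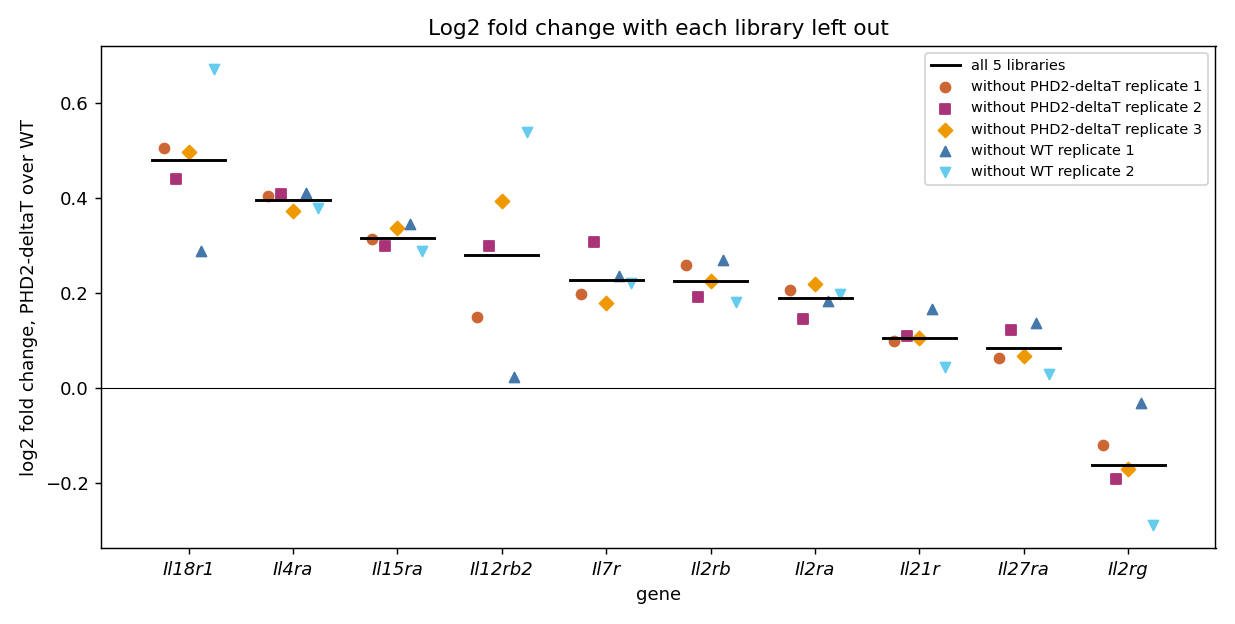
Log2 fold change of each chain, PHD2-deltaT over WT, with all 5 libraries (black line) and with each library left out in turn (symbols). Il4ra stays between 0.37 and 0.41, whereas Il18r1 runs from 0.29 to 0.67 and Il12rb2 from 0.02 to 0.54, and no chain changes sign.

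Across the members, 9 of 10 log2 fold changes were above 0 and their median was 0.23. Over all genes tested 48.2% were above 0 and the median was -0.01. The values of 7 members did not overlap between the groups, all with PHD2-deltaT higher, against 16.0% of all genes for that direction. Profiles over the 5 libraries were compared by the root mean square distance between log2 values centred on each gene's mean. The closest pairs were Il21r with Il27ra, at 0.04, and Il2ra with Il2rb, at 0.05, and the farthest was Il2rg with Il12rb2, at 0.38.

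The same distance was used to find the genes most like the called members among 9449 others whose normalized counts averaged at least 50. The search left out the other members and genes with names of predicted or clone-based type. H2-Q7, a nonclassical MHC class I gene on chromosome 17, and Rnf19b, a ubiquitin ligase gene on chromosome 4, were closest to Il4ra, at 0.02 and 0.03. H2-Q7 stood at 8768 ± 152 (SD, n = 3) against 6727 ± 288 (SD, n = 2) normalized counts and Rnf19b at 2213 ± 32.5 against 1636 ± 58.0. Closest to Il18r1 were Trim30d and Phf11c, at 0.03 each, with 255 ± 16.2 against 182 ± 31.1 and 299 ± 15.4 against 213 ± 45.6, and neither passed the test (adjusted p = 0.0618 and 0.0587). H2-Q7, Trim30d and Phf11c have close paralogs, with which counting could have split reads. Likeness over 5 libraries is a description only.

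Receptors work as pairs of chains, so the ratio of their levels per kilobase was read within each library, where the scaling of the library cancels. The ratio of Il4ra to Il2rg was 0.449, 0.405 and 0.437 under PHD2-deltaT against 0.270 and 0.316 under WT, a 1.47-fold higher mean. The ratio of Il2rb to Il2rg was 1.02 ± 0.01 (SD, n = 3) against 0.733 and 0.825. For Il7r over Il2rg it was 0.322, 0.251 and 0.308 against 0.205 and 0.243, and for Il21r over Il2rg 0.602, 0.538 and 0.558 against 0.449 and 0.492. In each of these 4 pairs all PHD2-deltaT libraries were above both WT libraries, and all 4 share Il2rg as the denominator, including its high WT replicate 1 value and its uncertain counts.

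The remaining pairs do not contain Il2rg. Il2ra over Il2rb was 0.633, 0.627 and 0.593 against 0.610 and 0.655, with overlapping groups. Il15ra over Il2rb averaged 0.0353 ± 0.0016 (SD, n = 3) against 0.0331 ± 0.0005 (SD, n = 2), without overlap. Il12rb2 over its partner Il12rb1 and Il18r1 over its partner Il18rap overlapped, with means of 0.758 against 0.655 and 1.42 against 1.30. Il27ra over Il6st was 3.18, 2.85 and 3.05 against 2.61 and 2.30, without overlap. With 3 libraries against 2, a two-sided exact permutation test cannot give a p under 0.2, whatever the values, so the 10 ratios are given as a description.

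**Figure D4:**
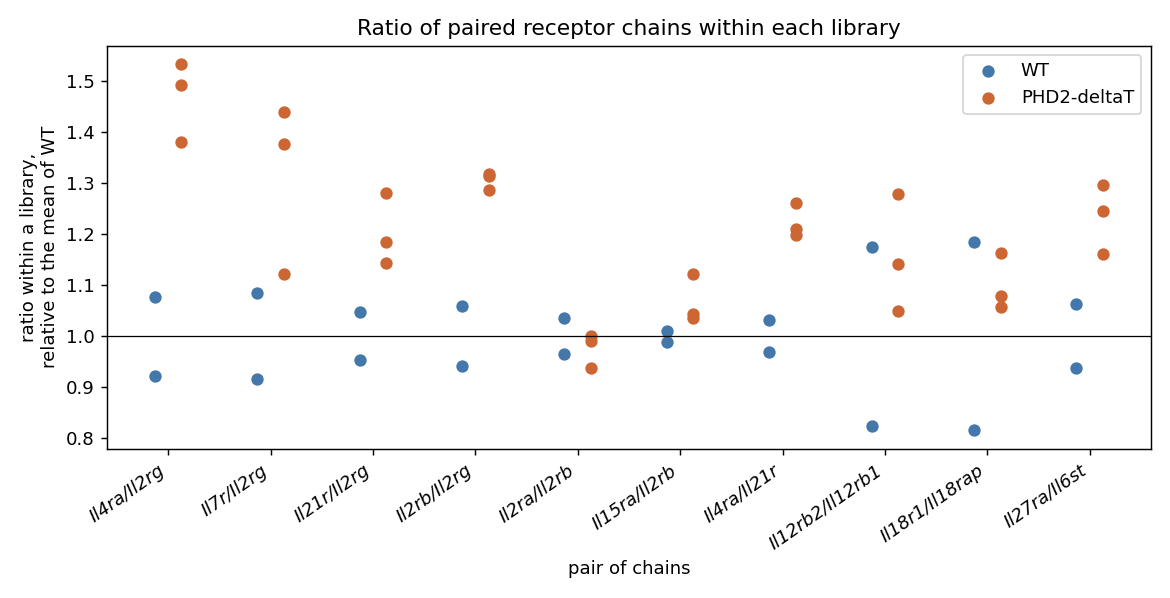
Ratio of 2 chains' normalized counts per kilobase within each library, divided by the mean ratio of the WT libraries (1 point per library, WT in blue, PHD2-deltaT in orange). The ratios of Il4ra and Il2rb to Il2rg are above both WT points in all 3 PHD2-deltaT libraries, and that of Il2ra to Il2rb is not.

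The remaining receptor chains of interleukins and interferons were read from a list of 36 genes, of which 21 were tested. Of these, 2 were called higher and 0 lower, against 2.97% and 1.02% of all genes, with a median log2 fold change of 0.14. At an unadjusted p under 0.05 there were 8 genes, 1 of them lower, against 8.53% of all genes higher and 6.48% lower. Il10ra, the IL-10 binding chain, rose from 943 and 885 normalized counts in WT to 1486, 1172 and 1571, a log2 fold change of 0.61 (adjusted p = 0.00217). Ifngr1, the interferon gamma binding chain, rose from 3763 and 4042 to 5429, 4587 and 5039, by 0.36 on the log2 scale (adjusted p = 0.0136), a call lost without WT replicate 1 (adjusted p = 0.164). Among partners of the members, Il18rap had a log2 fold change of 0.32 (adjusted p = 0.0876) and Il6st of -0.22 (adjusted p = 0.0933), and neither passed.

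Of 20 ligand genes, counting the inhibitor gene Il18bp, 3 were tested, with 1 called higher and 0 lower, against 2.97% and 1.02% of all genes. At an unadjusted p under 0.05 by limma-trend 3 were higher and 0 lower, against 8.53% and 6.48%. The gene called was that of interferon gamma (Ifng), with 9117, 11011 and 10059 normalized counts against 4479 and 4005. The genes of IL-2 itself (Il2) and of the secreted IL-18 inhibitor Il18bp missed the threshold, at 0.65 (adjusted p = 0.0900) and 0.61 (adjusted p = 0.111) on the log2 scale. Il2 had 95.1, 151 and 123 normalized counts against 76.5 and 76.3, and Il18bp 191, 172 and 133 against 87.6 and 131. Il2 passed without PHD2-deltaT replicate 1 (0.83, adjusted p = 0.0220). Leaving out PHD2-deltaT replicate 3 brought Il18bp past the threshold (0.76, adjusted p = 0.0388), as did leaving out WT replicate 2 (0.89, adjusted p = 0.0488), and its change was 0.32 when WT replicate 1 was left out.

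Downstream of the receptors, 18 of 20 JAK, STAT and adaptor genes were tested, with 2 called higher, 0 lower (2.97% and 1.02% of all genes) and a median log2 fold change of 0.09. Jak3, the kinase bound to the common gamma chain, rose from 2109 and 2159 to 3578, 3103 and 3415 normalized counts. Its log2 fold change was 0.65 (adjusted p = 5.19e-05), while Jak1, the partner kinase on the private chains, had -0.04 (adjusted p = 0.887). Stat5a rose by 0.29 on the log2 scale (adjusted p = 0.0403), a call lost without PHD2-deltaT replicate 3 (0.23, adjusted p = 0.145), without WT replicate 1 (0.32, adjusted p = 0.123), without WT replicate 2 (0.25, adjusted p = 0.332) and under quantile normalization (adjusted p = 0.0545). Stat3 (0.25, adjusted p = 0.0578) and Stat2 (0.29, adjusted p = 0.0882) did not pass. Stat3 passed under quantile normalization (adjusted p = 0.0466) and array weights (0.0426), and Stat2 without PHD2-deltaT replicate 2 (0.35, adjusted p = 0.0439).

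A list of feedback genes, both inducible inhibitors and kinases and constitutive PIAS proteins and phosphatases, gave 5 higher and 0 lower calls among 18 tested (2.97% and 1.02% of all genes), with a median log2 fold change of 0.10. Cish, an inhibitor of STAT5 signalling, had 1506, 1631 and 1625 normalized counts against 809 and 695. The log2 fold changes were 1.08 for Cish, 0.63 for Socs3, 0.58 for the kinase gene Pim1, 0.50 for Socs1 and 0.37 for Pim3. Without WT replicate 2, Socs1 (adjusted p = 0.151) and Pim3 (0.379) did not pass, and Pim3 was also lost without PHD2-deltaT replicate 2 (0.0602). By limma-trend 0 genes of the JAK, STAT and adaptor list and 0 of the feedback list were lower at an unadjusted p under 0.05, against 6.48% of all genes. In the authors' deposited table, of either list, 0 genes had an FDR under 0.05 towards WT, against 1.01% of its genes with an FDR. Towards PHD2-deltaT, 3 genes of the JAK, STAT and adaptor list and 5 of the feedback list had one, against 2.95%.

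**Figure D5:**
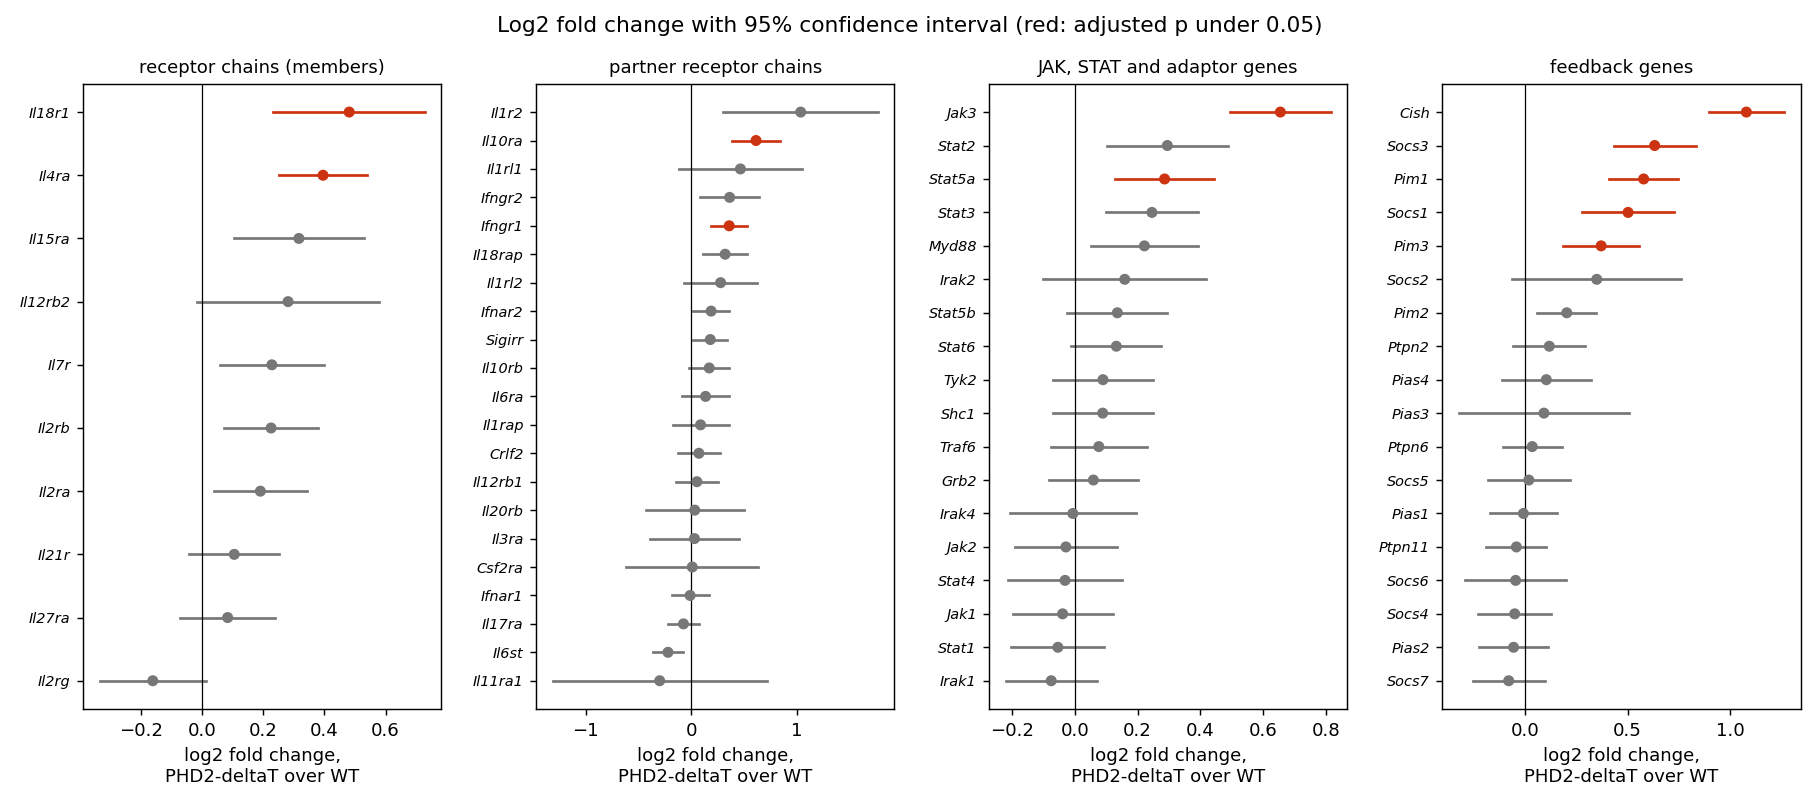
Log2 fold change, PHD2-deltaT over WT, with its 95% confidence interval from limma-trend for the 10 members and for the tested genes of 3 related lists; red marks an adjusted p under 0.05. The calls are Il18r1 and Il4ra among members, Il10ra and Ifngr1 among other chains, Jak3 and Stat5a, and 5 feedback genes, all above 0.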

How the data were processed

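The submitters' processing notes name the build mm10 and the tools HTSeq 0.9.1, STAR 2.5.3 and Trimmomatic 0.36. The authors deposited a normalized signal per library, called normalized counts per the file headers. How it was scaled is not given in the sources used here. They also deposited log2 mean expression, log2 fold changes (WT over PHD2-deltaT, by the sign of the library columns) and adjusted p-values headed FDR. Normalized counts summed to between 19593220 and 20253007 per library. Each value was a whole multiple of a library's step, and the multiples left gaps as reads times a constant, rounded up, would. From these gaps 10821714 to 15386603 reads per library were inferred, which is an inference and not a deposited depth. Counting errors are 1 over the square root of inferred reads and cover counting only.

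Spreadsheet damage had turned 17 gene names into numbers, and these were restored from gene IDs. The filter (10 normalized counts or more in 2 or more libraries) left 11534 genes. A linear model with a single term, genotype, was fitted to log2(value + 1) with R 4.3.3 and limma 3.58.1, with eBayes and a trend (limma-trend; 3 residual degrees of freedom), with two-sided tests, Benjamini-Hochberg adjustment over all genes and a threshold of 0.05. Fold changes in log2 are on the log2(value + 1) scale. The fit was tested on simulated data with known changes. TMM factors were computed on the deposited values. GENCODE M21 (GRCm38) gave positions, exon lengths and overlaps of exons. Python 3.11.15 with pandas 2.3.3 made the tables and matplotlib 3.10.9 the figures.

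The members and lists were chosen with earlier results of these data known. Genes named besides the members were, in each list, those called and up to 4 of smallest p, plus Egln1, the 2 genes closest in profile to each called member and, chosen after their values were seen, Jak1 and the markers named. A marker gene is not reported here. The labels give no replicate numbers, so replicates are numbered in their order. The 14 alternatives were other pseudocounts, filters and scalings, array weights, robust eBayes, limma with no trend, and each library left out.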

Additional observations from a re-analysis of the deposited data

How the results depend on the processing

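No paired analysis was possible because the labels give no replicate numbers shared between the groups. Of the 140 refits of the 10 chains under 14 alternatives, 133 kept the direction and the side of the threshold, 5 lost a call, 2 gained one and 0 changed direction. Limma without the mean-variance trend called 96 genes (of 461), 0 of the 10 chains (4 at an unadjusted p under 0.05), 0 other receptor chains (7 unadjusted), 0 JAK, STAT and adaptor genes (4 unadjusted) and 1 feedback gene, Cish. Under it Il4ra kept a log2 fold change of 0.40 (adjusted p = 0.104) and Il18r1 of 0.48 (0.235), since only the variance estimate differs. Quantile normalization gave Il18r1 0.45 (adjusted p = 0.0541) and Il2rb 0.24 (0.0195), and the cause was not tested. With each library left out, which leaves fewer samples, the calls numbered 244 (without WT replicate 2) to 523 over all genes, 1 (without WT replicate 1) to 2 among the chains, 1 to 3 among other receptor chains, 1 to 3 among JAK, STAT and adaptor genes and 3 to 5 among feedback genes. The log2 fold change then ranged from 0.29 to 0.67 for Il18r1 and from 0.18 to 0.31 for Il7r. With 1 WT library left, that library is assumed to vary like the other group. Il18r1 and Il15ra rest on the fewest inferred reads of the 10 chains, so depth limits them most.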
